A study of Mus musculus with 8 samples.

Results

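Cell cycle and DNA replication genes were examined in sorted cortical microglia, the resident macrophages of the brain, after injection of interleukin-33 (IL-33). The members are 48 listed genes, of which 35 had a mean normalized count of 10 or more over the 8 libraries and are described here, out of 53801 genes in the deposited table. By role, 18 of the 35 are regulators of G1, 10 are S phase genes of DNA synthesis and 7 are G2/M genes of chromosome condensation and mitosis. The IL-33 group held 4 mice (mice 1 to 4), given IL-33 into the cerebral ventricle of one side and killed 4 h later. The vehicle group held 4 mice (mice 5 to 8), injected in the same way with vehicle, which the table's header names PBS. All mice were 30 days old, and each group held 2 females and 2 males. Cells from the cortex were enriched on a 22% Percoll gradient in the cold and sorted, each library standing for 1 mouse. The labels give neither strain nor genotype, nor the markers used for sorting.

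The cell cycle is driven by cyclin-dependent kinases (CDKs), which are active only when bound to a cyclin. In G1, D-type cyclins with Cdk4 or Cdk6 phosphorylate the pocket proteins Rb1, Rbl1 and Rbl2, which otherwise hold E2F transcription factors in check, and CDK inhibitors oppose this step. E2F activity then turns on genes for the MCM helicase, the polymerase clamp and nucleotide supply, and later factors turn on the genes of mitosis. Most microglia of the adult brain are not dividing at a given time, and they can re-enter the cycle after injury or inflammation.

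Depth ran from 6989640 to 9323677 recovered reads per library. All 8 listed microglial markers were read in every group, with a summed normalized count of 89084 to 99164 in IL-33 mice and 156226 to 180927 in vehicle mice, and 6 of the 8 were called lower. Of 8 neutrophil markers, 7 were at 0 in every library (S100a8, S100a9, Ly6g, Mpo, Elane, Retnlg and Ltf), and of 5 T and NK cell markers Cd3e, Cd3d and Nkg7 were at 0. The other T and NK cell markers, Cd8a and Trac, averaged 3.85 and 1.23 in IL-33 mice and were at 0 in vehicle mice (sum 0.992 to 8.11, against 0). Summed markers of oligodendrocyte precursors, a dividing cell type of the brain, lay between 15.9 and 32.9 in IL-33 mice and between 8.41 and 13.01 in vehicle mice. Of 3 dendritic cell markers 2 were called higher with IL-33 (sum 414 to 485, against 184 to 236), while monocyte markers summed to 28.4 to 41.2 against 77.4 to 113. Border macrophage markers summed to 212 to 265 against 628 to 702. The part of such cells in the results below was not tested. Vehicle mouse 6 lay nearest the IL-33 mice more often than the other vehicle mice, in 12 of the 25 members called, against 6 for mouse 5, 2 for mouse 7 and 5 for mouse 8.

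The promoters of 8 called members are shown because genes with the same motifs moved in opposite directions. Each runs from 250 bases before to 50 bases after a start site (RefSeq, GRCm38.p6), and 27 of the 35 members had an entry. Capitals mark the CCAAT box, the cell cycle homology motif TTTGAA and the E2F motif TTTNNCGC with N as C or G, each on either strand. The first 2 were higher with IL-33 and the next 2 lower, all from G2/M genes.
Mki67 (chr7:135716330-135716629, minus strand): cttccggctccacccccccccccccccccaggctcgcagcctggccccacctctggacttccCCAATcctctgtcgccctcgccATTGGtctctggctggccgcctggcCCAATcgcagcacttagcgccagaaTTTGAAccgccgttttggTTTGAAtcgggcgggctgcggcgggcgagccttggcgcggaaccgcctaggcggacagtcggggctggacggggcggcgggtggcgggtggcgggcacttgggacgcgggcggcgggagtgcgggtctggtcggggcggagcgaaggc
Top2a (chr11:99024140-99024439, minus strand): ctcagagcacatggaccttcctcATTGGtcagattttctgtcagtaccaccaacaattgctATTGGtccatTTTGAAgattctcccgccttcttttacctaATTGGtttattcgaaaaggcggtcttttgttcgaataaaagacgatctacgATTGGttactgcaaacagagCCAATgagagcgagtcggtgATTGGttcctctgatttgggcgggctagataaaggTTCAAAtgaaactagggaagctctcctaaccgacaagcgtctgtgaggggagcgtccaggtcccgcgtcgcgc
Cenpf (chr1:189688037-189688336, minus strand): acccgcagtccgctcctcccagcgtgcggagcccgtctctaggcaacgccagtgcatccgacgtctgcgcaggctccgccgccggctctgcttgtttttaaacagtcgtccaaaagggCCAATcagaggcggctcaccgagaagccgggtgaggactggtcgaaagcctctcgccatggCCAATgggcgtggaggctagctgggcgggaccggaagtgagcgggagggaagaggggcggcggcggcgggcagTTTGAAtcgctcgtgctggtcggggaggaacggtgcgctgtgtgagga
Cdk1 (chr10:69352863-69353162, minus strand): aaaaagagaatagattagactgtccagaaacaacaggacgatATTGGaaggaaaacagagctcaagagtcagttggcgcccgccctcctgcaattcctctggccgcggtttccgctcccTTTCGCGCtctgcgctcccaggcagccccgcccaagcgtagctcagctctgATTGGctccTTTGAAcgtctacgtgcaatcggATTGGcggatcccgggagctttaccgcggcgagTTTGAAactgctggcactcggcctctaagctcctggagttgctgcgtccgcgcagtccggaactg
The next 4 belong to subunits of the MCM helicase, the first 2 higher with IL-33 and the last 2 lower.
Mcm5 (chr8:75109259-75109558, plus strand): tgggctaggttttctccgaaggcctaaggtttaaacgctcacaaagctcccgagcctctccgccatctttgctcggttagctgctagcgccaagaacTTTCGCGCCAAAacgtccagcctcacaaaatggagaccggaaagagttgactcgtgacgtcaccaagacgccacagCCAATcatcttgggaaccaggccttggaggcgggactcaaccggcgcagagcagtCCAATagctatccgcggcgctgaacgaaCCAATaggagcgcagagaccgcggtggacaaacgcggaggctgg
Mcm6 (chr1:128359656-128359955, minus strand): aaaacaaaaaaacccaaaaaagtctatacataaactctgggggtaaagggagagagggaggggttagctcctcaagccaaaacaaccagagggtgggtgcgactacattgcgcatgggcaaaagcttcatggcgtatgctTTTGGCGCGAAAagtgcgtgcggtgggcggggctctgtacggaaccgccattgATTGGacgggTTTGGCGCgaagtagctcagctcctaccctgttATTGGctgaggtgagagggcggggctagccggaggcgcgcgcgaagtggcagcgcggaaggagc
Mcm3 (chr1:20820263-20820562, minus strand): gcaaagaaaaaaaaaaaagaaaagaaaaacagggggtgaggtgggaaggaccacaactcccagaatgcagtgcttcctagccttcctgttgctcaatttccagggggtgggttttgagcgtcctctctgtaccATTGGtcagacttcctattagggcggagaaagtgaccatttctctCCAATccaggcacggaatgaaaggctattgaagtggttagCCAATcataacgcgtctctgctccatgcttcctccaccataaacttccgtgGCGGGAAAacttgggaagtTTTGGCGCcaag
Mcm7 (chr5:138171834-138172133, minus strand): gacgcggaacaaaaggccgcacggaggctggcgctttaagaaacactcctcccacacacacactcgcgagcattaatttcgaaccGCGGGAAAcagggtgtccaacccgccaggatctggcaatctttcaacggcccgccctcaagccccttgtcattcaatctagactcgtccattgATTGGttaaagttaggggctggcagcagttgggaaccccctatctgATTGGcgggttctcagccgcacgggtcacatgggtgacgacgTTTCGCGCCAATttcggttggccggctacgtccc
All 4 G2/M promoters hold both CCAAT and TTTGAA, and all 4 MCM promoters shown hold CCAAT and TTTNNCGC. Mcm7 has a second start site in the table, not shown, whose promoter holds CCAAT and no TTTNNCGC. In Mcm5 and Mcm6 2 TTTNNCGC matches on opposite strands overlap, and in Mcm7 a TTTNNCGC match overlaps a CCAAT box. Of 32851 promoters of the same length in the table, 37.4% hold CCAAT, 17.9% hold TTTGAA and 2.26% hold TTTNNCGC. Among the 27 members with an entry, 22 hold CCAAT, 10 hold TTTGAA and 9 hold TTTNNCGC in at least 1 promoter. Ccnd3, Cdkn2c, E2f2, E2f3 and Mcm7 have 2 promoters each, so these counts by gene and the shares by promoter are in unlike units. By direction, TTTNNCGC was in 2 of the 7 members with an entry called higher, 7 of the 14 called lower and 0 of the 6 not called. CCAAT was in 6, 11 and 5 of them, and TTTGAA in 2, 5 and 3. All genes with 2 promoters were called lower, so that group had more sequence in which a match could fall. These are letter matches, not sites of binding. Ccnd1, Ccnd2, Ccne2, E2f4, Rb1, Mcm4, Gins1 and Ccna2 have no entry.

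The comparison asked which of these genes had moved 4 h after the injection of IL-33. Among the G1 genes, the 3 pocket protein genes and the 3 kept CDK inhibitor genes fell, Ccnd1 and Ccnd3 fell while Ccnd2 rose, and Cdk6 and E2f4 rose. Outside the listed members, the CDK inhibitor gene Cdkn1a rose, as did Cdkn3, while the CDK inhibitor genes Cdkn1c and Cdkn2b fell. The S phase and G2/M genes split in both directions. Of the 35 members 9 rose, 16 fell and 10 were not called at an adjusted p under 0.05 by limma. Over all 15110 genes tested 57.7% were called, 29.2% higher and 28.5% lower, so that the 25 called members (71.4%) stand against a high background. The median log2 fold change of the members was -0.35, against 0.02 over all genes. The G1 genes gave 4 higher, 12 lower and 2 not called (median -0.65), the S phase genes 3 higher, 2 lower and 5 not called (median -0.13), and the G2/M genes 2 higher, 2 lower and 3 not called (median 0.34). The groups did not overlap in 22 of the 35, where this held for 52.3% of all genes: 9 lay wholly above vehicle (26.7% of all genes did) and 13 wholly below (25.6% of all genes did). In 6 members (Ccnd2, Top2a, Cenpf, Cdk1, Cdkn2c and Cdkn2d) the mean of the lower group was under 10, so that they passed the minimum through the group in which they were high and had to differ; the counts above are a description. In bulk RNA, fewer cells with a transcript and less of it per cell cannot be told apart. Without vehicle mouse 6, 11 members were called higher and 15 lower, where of all 15110 genes 4432 were called higher and 4280 lower. The authors' deposited table, whose adjusted p stays under 0.01, lists 7029 genes, out of 53801 in the table of counts. It holds 22 of the 35 members, each with the sign found here. Both rest on the same 8 libraries, so the shared signs are not independent support.

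**Figure D1:**
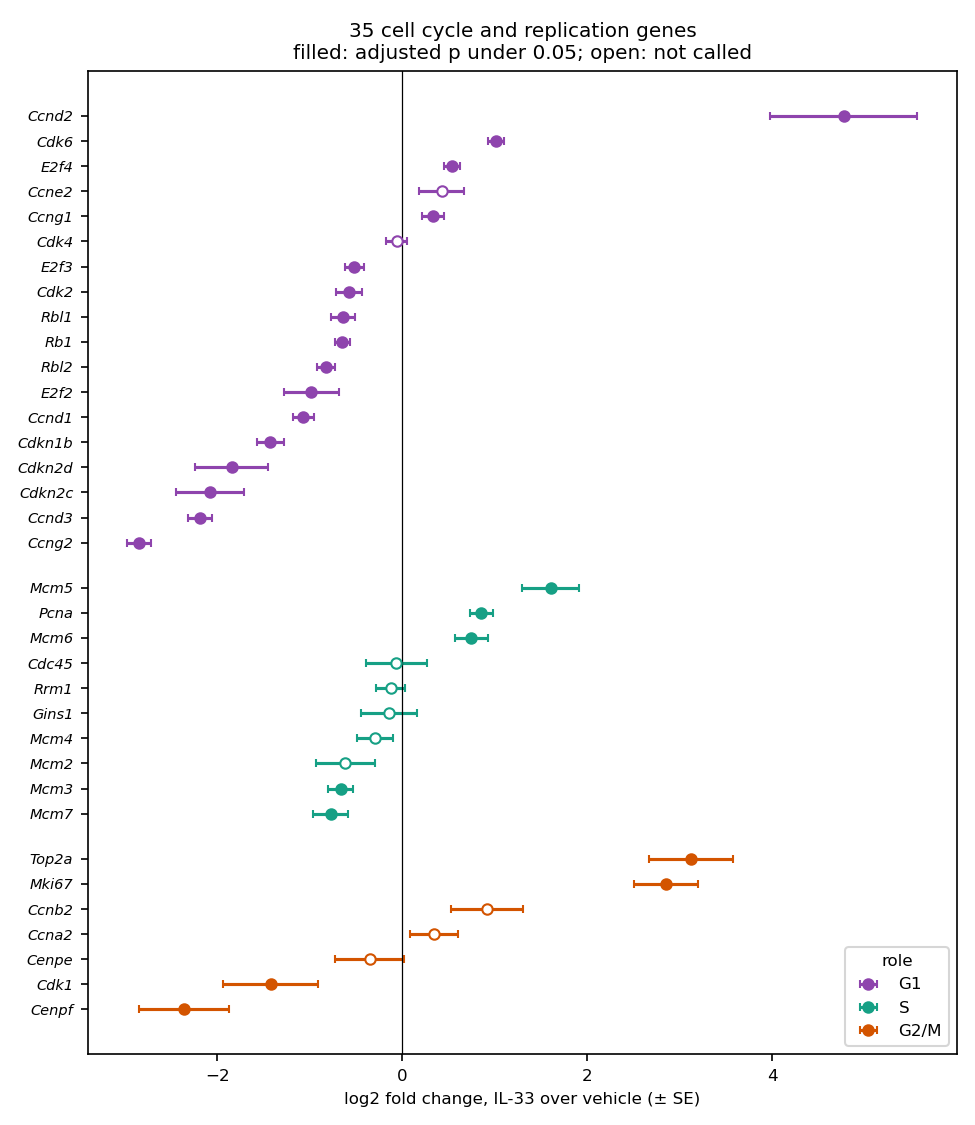
Log2 fold change of IL-33 over vehicle for the 35 genes, grouped by role and ordered by size within a role, with the standard error as bars. Filled points were called at an adjusted p under 0.05. The G1 genes run from -2.84 (Ccng2) to 4.77 (Ccnd2), with 12 of 18 called lower, while the S phase and G2/M genes lie on both sides of 0.

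D-type cyclins, which couple growth signals to the first CDKs of the cycle, moved apart. Ccnd2 (chromosome 6, 127125162 to 127152193) was 185, 173, 148 and 124 in IL-33 mice 1 to 4, against 5.89, 8.72, 0 and 15.01 in vehicle mice 5 to 8. These rest on 624 recovered reads in the IL-33 group and 30 in the vehicle group. Every IL-33 mouse lay far above every vehicle mouse, with a log2 fold change of 4.77 ± 0.80 (SE; limma adjusted p = 0.00169) and a ratio of group means of 21.2. The size of this rise depended on single vehicle libraries, at 3.91 without vehicle mouse 7, the lowest, and 5.51 without vehicle mouse 8, the highest, and in males alone it was 5.09 but not called (adjusted p = 0.124). Ccnd3 (chromosome 17, 47505051 to 47599691) was 154, 159, 141 and 109 in IL-33 mice, against 598, 624, 634 and 702 in vehicle mice. It fell in every IL-33 mouse below all vehicle mice, by a log2 fold change of -2.19 ± 0.12 (SE; limma adjusted p = 1.16e-10). Ccnd1 (chromosome 7, 144929931 to 144939925) was 280, 267, 250.4 and 260.5 with IL-33, against 608, 526, 657 and 454 with vehicle. It fell by 1.07 on the log2 scale (SE 0.12, adjusted p = 4.60e-07), again with no overlap.

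The make-up of the D-type cyclin pool differed with IL-33. Levels of different genes were compared as normalized counts per kilobase of annotated exon, taken as the union of all exons of a gene. Where the transcripts read are shorter than this union, the level is understated, so shares between genes depend on that length. Ccnd2 made up 18.7% ± 1.80 of the summed level of the 3 genes in IL-33 mice and 0.429% ± 0.375 in vehicle mice (SD, n = 4 each). Ccnd3 made up 17.98% ± 1.81 with IL-33 and 38.0% ± 5.03 with vehicle, while Ccnd1 was the larger part in both, at 63.3% ± 3.44 and 61.5% ± 5.39. On this measure Ccnd2 stood beside Ccnd3 after IL-33, and it was almost unread in vehicle mice. Before division by length, the vehicle mean of Ccnd3 (639) lay above that of Ccnd1 (561). The order of Ccnd1 and Ccnd3 thus depended on the exon length used, 4709 bases for Ccnd1 and 8775 for Ccnd3. The summed level per kilobase was 96.6, 93.1, 84.97 and 80.9 in IL-33 mice, against 198, 184, 212 and 178 in vehicle mice, so the rise of Ccnd2 did not bring the total to that of vehicle mice.

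Among the other cyclins, Ccng2, a cyclin known from cells that have left the cycle, showed the largest fall of the 35 genes. It was 219, 214, 250.4 and 183 in IL-33 mice, against 1618, 1155, 1855 and 1675 in vehicle mice, a log2 fold change of -2.84 ± 0.13 (SE; limma adjusted p = 1.81e-11). The highest IL-33 mouse, at 250.4, lay far below the lowest vehicle mouse, mouse 6, at 1155. Ccng1, a cyclin known as a target of the tumour suppressor Trp53, was 604 ± 85.8 with IL-33 and 479 ± 65.1 with vehicle (SD, n = 4 each). The groups overlapped, and its rise of 0.33 (adjusted p = 0.0264) lost the call on leaving out any of 5 mice (IL-33 mice 1, 2 and 4, vehicle mice 5 and 7; adjusted p between 0.0665 and 0.114). Ccng1 made up 80.9% ± 4.37 of the level per kilobase of the pair with IL-33 and 32.5% ± 6.35 with vehicle. Ccne2, an E-type cyclin that acts with Cdk2 at the start of S phase, was 58.8 ± 2.81 with IL-33 and 45.1 ± 13.7 with vehicle, and its log2 fold change of 0.43 was not called (adjusted p = 0.144). Vehicle mouse 6 held its highest value, 61.1, and without that mouse Ccne2 was called (0.63, adjusted p = 0.0290).

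Of the G1 kinases, Cdk6 rose, Cdk2 fell and Cdk4 was not called. Cdk6 (chromosome 5, 3341485 to 3531008) was the most abundant member per kilobase, with 7653, 7205, 8359 and 8460 normalized counts in IL-33 mice, against 4278, 4345, 3859 and 3318 in vehicle mice. The groups did not overlap, with a log2 fold change of 1.01 ± 0.09 (SE; limma adjusted p = 2.66e-08). Cdk2, the partner of E- and A-type cyclins, was 197, 197, 183 and 185 with IL-33, against 296, 210.5, 351 and 298 with vehicle. It fell by 0.58 on the log2 scale (adjusted p = 0.00194), its lowest vehicle value again that of mouse 6, and in females alone the call was lost (-0.34, adjusted p = 0.204). Cdk4 averaged 383 ± 48.9 with IL-33 and 399 ± 41.3 with vehicle, a log2 fold change of -0.06 ± 0.11 (SE; limma adjusted p = 0.66). Of the summed level per kilobase of the 3 kinases, Cdk6 took 79.1% ± 2.94 in IL-33 mice and 62.4% ± 4.00 in vehicle mice.

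**Figure D2:**
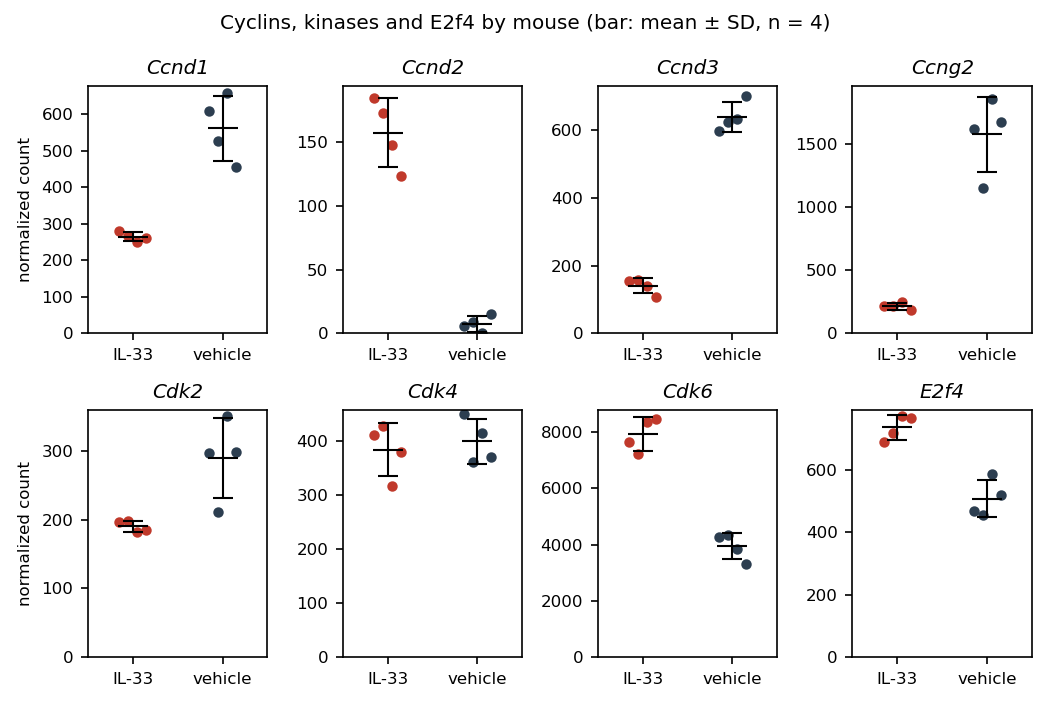
Normalized counts of 3 D-type cyclins, Ccng2, 3 G1 kinases and E2f4 in each mouse, IL-33 at the left and vehicle at the right of each panel, with mean ± SD as bars (n = 4). Ccnd2 lies between 124 and 185 with IL-33 and between 0 and 15.01 with vehicle, Ccnd1, Ccnd3 and Ccng2 lie lower with IL-33, and Cdk4 overlaps.

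The 3 kept CDK inhibitor genes were lower with IL-33. Cdkn1b, an inhibitor of cyclin E and cyclin A complexes (chromosome 6, 134920401 to 134925513), was 166, 168, 189 and 157 in IL-33 mice, against 484, 312, 563 and 515 in vehicle mice. The groups were fully apart, and the log2 fold change was -1.43 ± 0.14 (SE, adjusted p = 1.63e-07). Cdkn2c and Cdkn2d, inhibitors of Cdk4 and Cdk6 from the INK4 family, were low, and passed the minimum only through the vehicle group. Cdkn2c was 7.10, 9.92, 5.65 and 4.45 with IL-33, against 34.5, 19.6, 35.7 and 37.0 with vehicle (log2 fold change -2.08 ± 0.37 SE, adjusted p = 0.000109). Cdkn2d was 4.06, 3.97, 11.3 and 4.45 with IL-33, against 22.7, 17.4, 31.1 and 19.0 with vehicle (log2 fold change -1.85 ± 0.40 SE, adjusted p = 0.000683). In all 3 genes the groups did not overlap, although Cdkn2c rests on 27 reads in the IL-33 group and 135 in the vehicle group, and Cdkn2d on 24 and 96. Per kilobase, the 3 inhibitors summed to 43.7 ± 5.09 with IL-33 and 129 ± 29.8 with vehicle (SD, n = 4 each), and Cdkn1b made up 85.8% of that sum with IL-33 and 79.7% with vehicle.

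All 3 pocket proteins fell, and by similar amounts. Rb1, the retinoblastoma protein (chromosome 14, 73183673 to 73325822), was 674, 670, 620.3 and 610.0 in IL-33 mice, against 1008, 986, 991 and 1053 in vehicle mice. This gave a log2 fold change of -0.65 ± 0.08 (SE; limma adjusted p = 2.14e-06). Rcbtb2 and Lpar6, whose exons overlap those of Rb1 on the opposite strand, were lower too, and their part in the Rb1 counts was not tested. Rbl2, which forms a repressor complex with E2f4 in resting cells (chromosome 8, 91070057 to 91123844), was 305, 272, 337 and 306 with IL-33, against 517, 497, 556 and 598 with vehicle (log2 fold change -0.83 ± 0.10 SE, adjusted p = 9.96e-07). Rbl1, the pocket protein more typical of cycling cells, was 133 ± 14.5 with IL-33 and 210.2 ± 37.3 with vehicle (SD, n = 4 each; log2 fold change -0.64 ± 0.13 SE, adjusted p = 0.000384). No IL-33 mouse overlapped a vehicle mouse in any of them. The summed level per kilobase was 169.6 ± 3.40 with IL-33 and 274.6 ± 14.8 with vehicle, and Rb1 held 63.1% ± 3.13 of it with IL-33 and 61.2% ± 2.24 with vehicle, overlapping shares of a lower total.

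**Figure D3:**
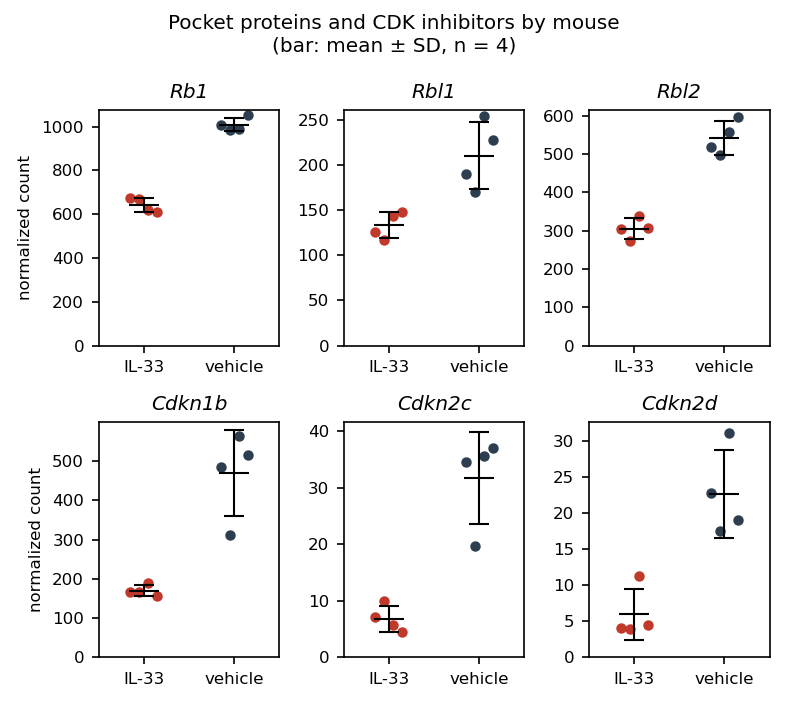
Normalized counts of the pocket protein genes Rb1, Rbl1 and Rbl2 and the CDK inhibitor genes Cdkn1b, Cdkn2c and Cdkn2d in each mouse, IL-33 left and vehicle right, with mean ± SD as bars (n = 4). In all 6 panels every IL-33 mouse lies below every vehicle mouse, and vehicle mouse 6 is the lowest vehicle value in each.

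The E2F factors went both ways. E2f4, which acts mainly as a repressor, was 689.7, 719, 772 and 766 in IL-33 mice, against 469, 457, 588 and 519 in vehicle mice. It rose without overlap by a log2 fold change of 0.54 ± 0.09 (SE; limma adjusted p = 3.90e-05). E2f3, an activator, was 542, 556, 526 and 510 with IL-33, against 786, 613, 817 and 870 with vehicle, and fell by 0.52 (SE 0.10, adjusted p = 0.000323). E2f2, another activator, was lower in level and overlapped between groups, at 11.2, 13.9, 33.9 and 28.9 with IL-33 and 33.7, 44.7, 34.8 and 50.04 with vehicle (log2 fold change -0.98 ± 0.30 SE, adjusted p = 0.00977). Its call was lost in males alone (-0.40, adjusted p = 0.374), and that of E2f3 in females alone (-0.34, adjusted p = 0.0922). Per kilobase, E2f4 took 74.5% ± 1.18 of the level of these 3 factors in IL-33 mice and 58.0% ± 2.77 in vehicle mice. E2f1, E2f7 and E2f8 stayed under the mean of 10.

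In S phase, Pcna, the sliding clamp of DNA polymerases (chromosome 2, 132249162 to 132253314), was 511, 646, 430.2 and 524 in IL-33 mice, against 284, 245, 309 and 320.3 in vehicle mice. It rose without overlap by a log2 fold change of 0.86 ± 0.13 (SE; limma adjusted p = 1.78e-05). The members Rrm1, Cdc45 and Gins1 were not called. Rrm1, the large subunit of ribonucleotide reductase, averaged 142 ± 27.3 with IL-33 and 154 ± 17.1 with vehicle (log2 fold change -0.13, adjusted p = 0.513). Cdc45 and Gins1, parts of the active helicase, averaged 14.4 ± 3.01 and 20.02 ± 3.17 with IL-33, and 14.96 ± 1.41 and 22.5 ± 5.30 with vehicle (log2 fold changes -0.06 and -0.14, adjusted p = 0.884 and 0.709). With standard errors of 0.33 and 0.30, a change of moderate size in these last 2 genes was not detectable at this depth.

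The subunits of the MCM helicase, which work as a ring holding 1 copy of each, did not move together. Mcm5 (chromosome 8, 75109569 to 75128439) was 37.5, 27.8, 31.1 and 42.3 in IL-33 mice, against 12.6, 11.996, 9.15 and 9.01 in vehicle mice. It rose by a log2 fold change of 1.60 ± 0.31 (SE; limma adjusted p = 0.000233), with 136 reads in the IL-33 group and 45 in the vehicle group. Mcm6 was 101, 132, 109 and 120.2 with IL-33, against 57.2, 78.5, 62.2 and 78.1 with vehicle (log2 fold change 0.74 ± 0.18 SE, adjusted p = 0.00179). Both had every IL-33 mouse above every vehicle mouse. Mcm3, in contrast, was 150.1, 162, 121 and 156 with IL-33, against 217, 244, 248 and 224 with vehicle (log2 fold change -0.67 ± 0.13 SE, adjusted p = 0.000348). Mcm7 was 75.1, 100.2, 121 and 85.7 with IL-33, against 204, 121.0, 172 and 161 with vehicle (log2 fold change -0.78 ± 0.19 SE, adjusted p = 0.00166). Its lowest vehicle value, from mouse 6, lay just below that of IL-33 mouse 3, so the groups touched.

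The remaining subunits were not called. Mcm4 averaged 80.5 ± 19.5 with IL-33 and 97.4 ± 10.1 with vehicle (adjusted p = 0.208). Mcm2 was 22.3, 17.9, 23.5 and 28.9 with IL-33, against 48.0, 55.6, 31.1 and 19.0 with vehicle (log2 fold change -0.62 ± 0.32 SE, adjusted p = 0.109). Its vehicle females were the 2 highest and vehicle male mouse 8 overlapped the IL-33 mice. Without vehicle mouse 8 Mcm2 was called lower (-0.89, adjusted p = 0.0236), as it was in females alone (-1.33, adjusted p = 0.0118), but limma's test of female against male effects gave an adjusted p of 0.484.

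Per kilobase, the share of Mcm5 in the 6 subunits was 7.28% ± 1.48 with IL-33 and 1.79% ± 0.28 with vehicle (SD, n = 4 each), and that of Mcm6 was 20.6% ± 0.94 with IL-33 and 9.93% ± 1.84 with vehicle. Mcm3 held the largest share in both groups, 32.7% ± 3.63 with IL-33 and 41.7% ± 3.57 with vehicle. The summed level per kilobase of the 6 was 108, 129, 114 and 129.9 in IL-33 mice, against 157, 147, 149 and 146 in vehicle mice. The total was thus lower in every IL-33 mouse, while Mcm5, the lowest of the 6 in vehicle mice at a mean of 2.68, stood at 8.68 with IL-33, above Mcm2 at 3.33.

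**Figure D4:**
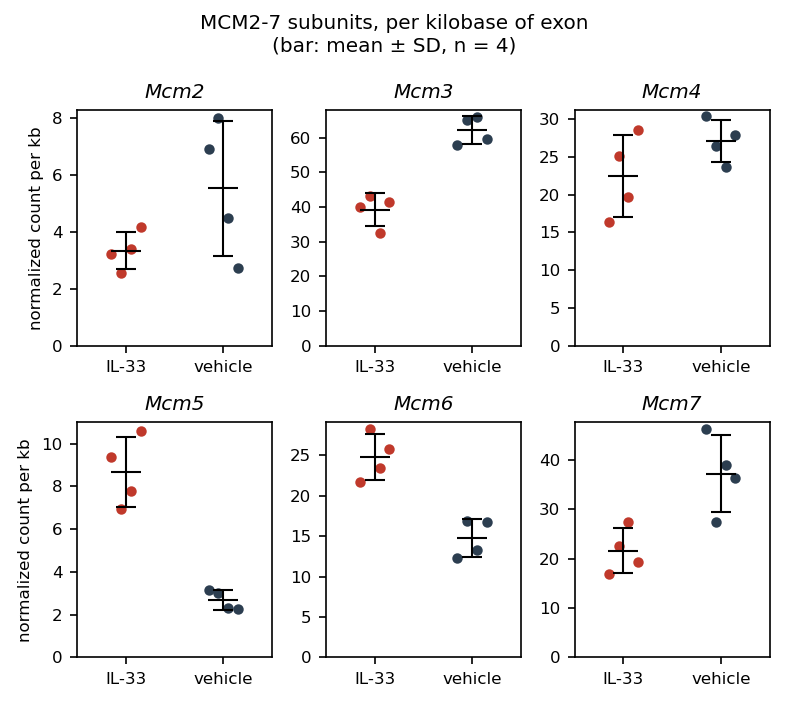
Normalized counts per kilobase of exon for the 6 MCM subunits in each mouse, IL-33 left and vehicle right, with mean ± SD as bars (n = 4). Mcm5 and Mcm6 lie higher with IL-33 (means 8.68 and 24.8, against 2.68 and 14.8), Mcm3 and Mcm7 lower (39.3 and 21.6, against 62.2 and 37.2), and Mcm2, Mcm4 and, by 1 mouse, Mcm7 overlap.

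The G2/M genes were low in both groups, with means per kilobase over all mice between 1.29 (Cenpf) and 9.92 (Ccnb2), against 424 for Cdk6. Mki67, which coats mitotic chromosomes and is the usual marker of proliferating cells (chromosome 7, 135689784 to 135716361), was 54.8, 52.6, 97.0 and 75.7 in IL-33 mice, against 5.89, 5.45, 6.41 and 24.0 in vehicle mice. All IL-33 mice were higher, with a log2 fold change of 2.85 ± 0.34 (SE; limma adjusted p = 1.64e-06) on 278 reads in the IL-33 group and 43 in the vehicle group. Top2a, the topoisomerase that untangles chromosomes before division (chromosome 11, 98992943 to 99024189), was 20.3, 37.7, 25.4 and 31.2 with IL-33, against 5.89, 1.09, 1.83 and 2.002 with vehicle. It rose by 3.12 on the log2 scale (SE 0.45, adjusted p = 1.39e-05), on 113 reads in the IL-33 group and 12 in the vehicle group, and by 2.14 with a pseudocount of 5.

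Cenpf, a kinetochore and nuclear matrix protein of G2 and mitosis (chromosome 1, 189640606 to 189688086), ran the other way, at 6.09, 12.9, 0.941 and 7.79 with IL-33 and 23.6, 41.4, 39.4 and 27.0 with vehicle. Its log2 fold change was -2.36 ± 0.48 (SE, adjusted p = 0.00049), on 27 reads with IL-33 and 136 with vehicle, with no overlap; it was -1.70 in females alone, -3.02 in males alone and -1.74 with a pseudocount of 5. Cdk1, the kinase that starts mitosis, was 2.03, 12.9, 4.71 and 16.7 with IL-33, against 26.9, 27.3, 13.7 and 18.02 with vehicle (log2 fold change -1.43 ± 0.51 SE, adjusted p = 0.0251). IL-33 mouse 4 overlapped the vehicle range. The call did not hold when IL-33 mouse 1 was left out (-0.85, adjusted p = 0.105), nor without mouse 3, 5 or 6 (adjusted p of 0.0771, 0.0765 and 0.0615), nor in males alone (-0.74, adjusted p = 0.331), while in females alone it was -2.11 and called (adjusted p = 0.0244). Thus the G2/M genes lower with IL-33 numbered 2, and 1 without any of those 4 mice.

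The other G2/M members were not called. Ccnb2, a B-type cyclin, was 20.3, 18.9, 18.8 and 20.04 with IL-33, against 6.73, 15.3, 5.49 and 16.01 with vehicle. Every IL-33 mouse lay above every vehicle mouse, yet its log2 fold change of 0.92 ± 0.39 (SE) had an adjusted p of 0.0537, and it was called without vehicle mouse 6 (1.14, adjusted p = 0.0254) or vehicle mouse 8 (1.19, adjusted p = 0.0222). Ccna2, the A-type cyclin of S and G2, averaged 36.6 ± 6.08 with IL-33 and 28.6 ± 5.23 with vehicle (log2 fold change 0.34, adjusted p = 0.272). Cenpe, a kinetochore motor, averaged 12.1 ± 3.69 with IL-33 and 15.9 ± 5.50 with vehicle (log2 fold change -0.35, adjusted p = 0.431). The summed normalized count of all 7 genes was 149, 180, 202 and 200.4 in IL-33 mice, against 109, 136, 112 and 134 in vehicle mice, and Mki67 was its largest part with IL-33.

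**Figure D5:**
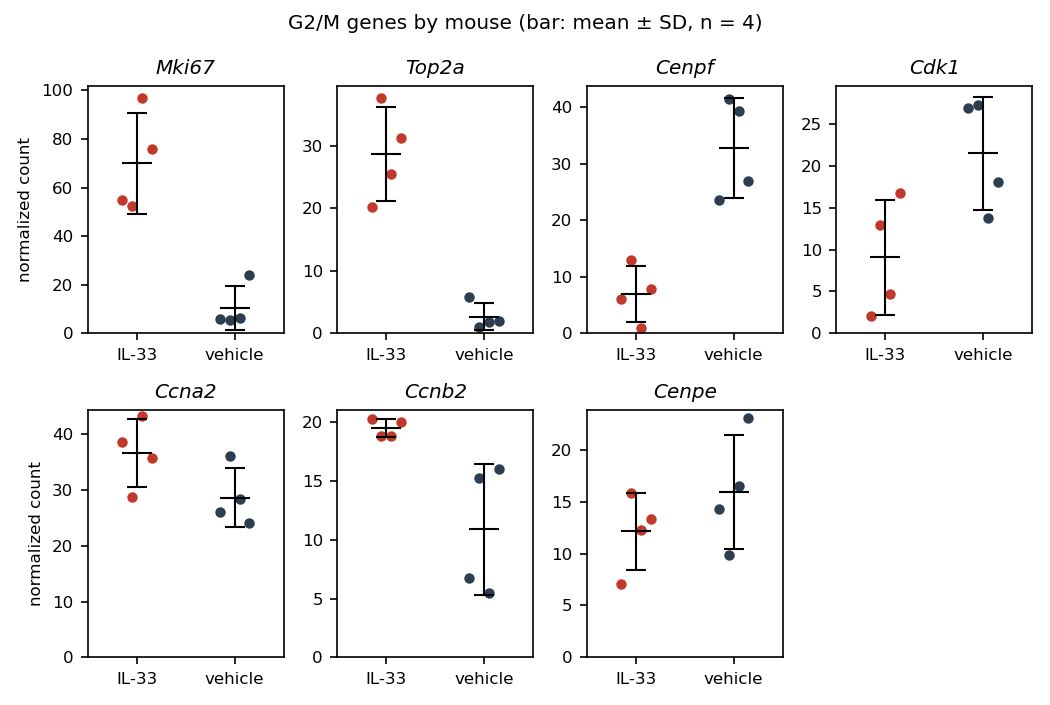
Normalized counts of the 7 G2/M genes in each mouse, IL-33 left and vehicle right, with mean ± SD as bars (n = 4). Mki67 and Top2a lie higher with IL-33 (means 70.0 and 28.6, against 10.4 and 2.70), Cenpf and Cdk1 lower (6.93 and 9.08, against 32.8 and 21.5), and the groups overlap in Cdk1, Ccna2 and Cenpe.

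The 13 members under the mean were Ccne1, E2f1, E2f7, E2f8, Rrm2, Ccnb1, Aurka, Aurkb, Bub1, Plk1, Tpx2, Cdc20 and Ube2c. Among them are the mitotic kinase genes Aurka, Aurkb, Bub1 and Plk1. They rest on 4 (E2f7) to 71 (Cdc20) reads over all 8 libraries. The lowest mean kept was 14.02 (Cenpe) and the highest left out 8.76 (Cdc20), an activator of the anaphase-promoting complex. Rrm2, the regulated subunit of ribonucleotide reductase, had 2 reads in the IL-33 group and 7 in the vehicle group, and Ccnb1, the main mitotic cyclin, 12 and 2. Aurkb, a mitotic kinase, had 11 reads with IL-33 and 40 with vehicle, of which vehicle mouse 5 gave the highest normalized count, 17.7. Of these 13, Cdc20 passed the filter of the test, at 12.02 ± 4.95 with IL-33 and 5.51 ± 3.26 with vehicle (log2 fold change 1.05, adjusted p = 0.0575).

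The IL-33 effect was also compared between the sexes, with 2 mice per treatment and sex. By limma's interaction term 0 of 35 members were called (smallest adjusted p = 0.316, for Cdk6), with 4 at an unadjusted p under 0.05, a level that 8.31% of all genes reached, and edgeR and DESeq2 called 0 as well. Over all genes 0.00662% were called. Cdk6 rose in females (7429 against 4311, log2 0.78) and in males (8410 against 3589, log2 1.23).

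Reads of overlapping genes bear on 13 members, since the strand setting of the counting is not given. Ccnd1 shares 23.4% of its exon bases with LTO1 on the opposite strand, which was 192 ± 26.3 with IL-33 and 171 ± 20.6 with vehicle and was not called (log2 0.16, adjusted p = 0.338). Cdk4 shares 19.7% with Tspan31, Ccne2 17.4% with Ints8 and Ccna2 12.5% with Exosc9, and these neighbours were higher with IL-33, by 0.51, 0.53 and 0.59 on the log2 scale (adjusted p = 0.0014, 0.000146 and 0.00694). Rbl2 shares 9.17% with Aktip and 11.8% with Gm45464, neither called. Rb1 shares 8.11% with Rcbtb2 and 6.78% with Lpar6, which lie on the opposite strand and fell as well. Rcbtb2 was 259 ± 19.0 with IL-33 and 1484 ± 38.2 with vehicle (log2 -2.51, adjusted p = 2.60e-13), and Lpar6 was 802 ± 81.1 with IL-33 and 1239 ± 169.7 with vehicle (log2 -0.62, adjusted p = 6.63e-05). Mcm7 shares 7.25% with Ap4m1, which fell by 0.43 on the log2 scale (adjusted p = 0.0276). Neighbours sharing 5.96% or less include Bysl with Ccnd3 (log2 2.06) and Gm17590 with Cdk6 (log2 0.94), both higher. The part of these neighbours in the members' values was not tested. Ccnd2 overlaps only antisense transcripts with means of 0 and 0.127.

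A wider list of 167 other cell cycle genes was read from the same fit, and 134 were tested. Of these 39 rose, 34 fell and 61 were not called (median log2 fold change -0.03). The 54.5% called, 29.1% higher and 25.4% lower, stand beside 57.7%, 29.2% and 28.5% of all genes, and the class counts below are a description. The class listed here as CDK control gave 11 higher and 5 lower of 25. It was set broadly, and the genes called higher included Cdk12, Cdk13 and Ccnk, at 0.27, 0.35 and 0.28. The largest change was that of Cdkn1a, an inhibitor of several CDKs and unlike the inhibitors above. Cdkn1a was 1292 ± 125 with IL-33 and 106 ± 86.0 with vehicle (log2 fold change 3.87 ± 0.46 SE, adjusted p = 0.000736), and in females alone the call was lost (3.55, adjusted p = 0.0997). Skp2, which marks Cdkn1b protein for breakdown, and Cdc25a, a phosphatase that activates CDKs, rose by 0.84 and 0.50, while Ccni, Cdk14 and Cul1 were at -1.25, -0.31 and -0.20. Partners of E2F and of its repressor complex gave 4 higher and 3 lower of 10. E2f6, E2f5 and Tfdp1 rose by 1.04, 0.75 and 0.58. Tfdp2, a dimer partner of E2F factors, fell to 56.3 ± 17.8 with IL-33, against 243 ± 44.2 with vehicle (log2 fold change -2.13, adjusted p = 2.28e-07), and the repressor complex subunits Lin9 and Lin54 were at -1.12 and -0.65.

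In origin licensing and firing 3 rose and 3 fell of 15. Orc2 and Orc1, subunits of the origin recognition complex, moved apart, at 306 ± 24.3 and 54.8 ± 10.1 with IL-33 and 154 ± 10.96 and 143 ± 24.4 with vehicle (log2 fold changes 0.98 and -1.37, adjusted p = 1.76e-06 and 8.90e-06). Cdc7, with a mean of 47.5, had the largest rise of the class. It was 72.7 ± 3.01 with IL-33 and 22.2 ± 14.8 with vehicle (log2 fold change 2.03 ± 0.45 SE, limma adjusted p = 0.00214). Orc6 was at 0.52, Gins4 at -0.47 and Orc3 at -0.42. Polymerase and clamp loader genes gave 5 higher and 4 lower of 24, with Pole2, Pola1 and Pold2 at 0.93, 0.81 and 0.76 and Pold4, Rnaseh2a and Pola2 at -0.92, -0.81 and -0.44. Rfc4, with a mean of 46.8, had the largest rise of these, at 1.01. In nucleotide supply, a class that also held Slbp, a gene of histone mRNA handling, 3 rose and 4 fell of 8. Tk1, thymidine kinase, was 637 ± 85.8 with IL-33 and 339 ± 39.6 with vehicle (log2 0.90), and Dctd and Slbp rose by 0.75 and 0.63. Samhd1, which breaks down deoxynucleotides, was 591 ± 29.1 with IL-33 and 1352 ± 150.3 with vehicle (log2 -1.19, adjusted p = 3.31e-09), and Rrm2b and Dck were at -0.64 and -0.46.

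Of 31 tested mitosis genes 6 rose and 8 fell. Ncaph, a condensin subunit, was 58.9 ± 7.66 with IL-33 and 226 ± 13.1 with vehicle (log2 -1.93, adjusted p = 7.79e-09), and Espl1, the protease that cleaves cohesin, was at -1.18. The tubulins Tubb5 and Tuba1b and the chromatin protein Hmgb2 rose by 0.94, 0.57 and 0.55. The anaphase-promoting complex gave 6 higher and 4 lower of 14, with Cdc27, Cdc26 and Cdc16 at 1.09, 0.52 and 0.42 and Anapc13, Anapc15 and Anapc5 at -1.03, -0.91 and -0.55. In cohesin 1 rose and 3 fell of 7: Wapl, which releases cohesin, rose by 0.52, and Nipbl, which loads it, Stag2 and Rad21 were at -0.41, -0.39 and -0.22. Orc6, Pola2, Dck, Cdk14, Cul1, Hmgb2 and Rad21 lost the call on leaving out at least 1 single mouse.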

How the data were processed

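The authors deposited normalized counts, a signal made by dividing each library's read counts by 1 size factor. Every value was a whole multiple of the library's smallest step (100% within 0.001 reads), so whole reads could be recovered, and edgeR on those reads called 25 of the 35 members. Per the submitters' processing notes, the tools were DESeq2 1.24.0, HTSeq 0.9.0, STAR 2.6.0 and FastQC, with GRCm38 (mm10) as the genome. No source used here gives the strand setting, annotation release or filters. Per the file headers, the authors' second table holds mean normalized counts, log2 fold changes with standard errors, a score (their quotient), p-values and adjusted p-values for 7029 genes. All 8 columns were matched to mice by number, leaving 0 unmapped. In the 12 within-group pairs, chi-square per degree of freedom was 4.00 to 18.8, so each mouse was counted once. Nothing beyond the mouse numbers says how animals were housed or processed, so p-values measure the spread between these mice.

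Tests used limma 3.58.1 in R 4.3.3 on log2 values after adding a pseudocount of 1, modelling treatment and sex (robust eBayes with a trend), over 15110 genes at 10 or more in at least 4 libraries. Benjamini-Hochberg adjustment ran over all of them, two-sided, with calls under 0.05. On this scale the fold change of a low gene depends on the pseudocount and on single low libraries. The script was checked on simulated data. Names, coordinates and exon lengths (union of exons) are from GENCODE M21 (GRCm38). Alternatives were edgeR 4.0.16, DESeq2 1.42.0, other scalings, filters and pseudocounts, single sexes and leaving out each mouse. All members kept are named, and of the wider list up to 3 called genes per class and direction with a mean of 50 or more. Some genes under that mean are named as well: Cdkn1c, Cdkn2b, Cdkn3, Cdc7, Rfc4, Kif2c, Ckap2l, Stmn1, Ncapd2, Anln, Cenpa, Mad2l1 and Cit. Their calls were not followed over the alternatives. Other called genes under it are not named. Members and lists were chosen with earlier results of these data known. Without molecular identifiers, PCR copies of a molecule may be counted more than once, so read numbers cover counting error only.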

Additional observations from a re-analysis of the deposited data

Results flagged for a closer look

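In 3 of 70 sets of 4 mice (35 genes in 2 groups), 1 mouse lay far from the other 3 of its group by Dixon's test, and chance alone gives about 1 in 20. For Mki67, vehicle mouse 8 had 24.0 normalized counts, where the other vehicle mice had 5.45 to 6.41. Without it the log2 fold change of Mki67 was 3.24. For Cdkn2d, IL-33 mouse 3 had 11.3, where the other IL-33 mice had 3.97 to 4.45, and without it the log2 fold change was -2.12. For Cdkn2c, vehicle mouse 6 had 19.6, where the other vehicle mice had 34.5 to 37.0, and without it the log2 fold change was -2.35.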

How the results depend on the processing

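No paired analysis was possible because the IL-33 and vehicle mice share no replicate numbers. Over 20 alternatives, 19 of the 25 called members kept the call and its direction in all of them. The others (Ccnd2, Ccng1, Cdk1, Cdk2, E2f2 and E2f3) lost it in at least 1, and no called member changed direction. In 700 refits of single members, 18 lost a call and 8 gained one. Of the G2/M genes, those called lower fell to 1 by eBayes without trend or robust and in males only, and ranged from 1 to 2 on leaving out a mouse. The G1 genes called higher were 2 in males only. Of the wider list, 19 genes were called lower in females only. Genes whose IL-33 effect differed between the sexes were 1 by limma, 29 with no filter on low values, 4 by edgeR, 29 by DESeq2, 0 by eBayes without trend or robust, and from 0 to 371 (without vehicle mouse 5) on leaving out a mouse. The cause was not tested. Depth limits the members under about 20 normalized counts, where 1 read is a large step.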
